A study of Homo sapiens with 2 samples.

Results

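The data described here are the 37 probe sets of 10 genes of platelet-derived growth factor (PDGF) and fibroblast growth factor (FGF) signalling, out of 54675 probe sets and 19775 named genes on the array. The genes are the PDGF receptors PDGFRA and PDGFRB, the PDGF ligands PDGFA and PDGFC, the FGF receptors FGFR1, FGFR2 and FGFR3, and the FGF ligands FGF1, FGF2 and FGF5. A probe set was taken if the platform annotation gave it 1 gene symbol and that symbol was one of these genes. RNA came from U251, an established human glioma cell line grown in DMEM with serum, and was hybridised to Affymetrix HG-U133 Plus 2 arrays. There were 2 samples: the control group was 1 array of U251 cells transfected with a control, and the miR-31 group was 1 array of U251 cells transfected with miR-31. The labels do not describe the control, the construct or the time of harvest, and all cells were of 1 line. The study asked which genes differ when miR-31 is over-expressed. With 1 array per group there is no replicate spread, no p-value is given, and any other difference between the 2 cultures cannot be told apart from miR-31.

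PDGF ligands are secreted dimers that bring together a pair of receptor tyrosine kinases, PDGFRA and PDGFRB, which then phosphorylate each other and recruit adaptor proteins. FGF ligands do the same for the FGF receptors, with heparan sulfate chains as a coreceptor. Both families feed the RAS-ERK and phosphoinositide 3-kinase pathways. PDGFRA marks oligodendrocyte progenitors and is often over-active in glioma, PDGFRB is typical of pericytes, and FGFR1 and FGFR3 are altered in subsets of glioma. MicroRNAs such as miR-31 lower target mRNAs mainly through pairing of their seed, near the 5′ end.

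The molecule that was over-expressed is shown first because the array transfected with it is compared with the control array throughout. Mature miR-31-5p is 21 bases long and lies at chr9:21512158-21512178 on the minus strand (RefSeq, GRCh38.p14), inside a hairpin of 71 bases at chr9:21512115-21512185. The seed, bases 2 to 8, is in capitals in the mature form, and the mature strand is in capitals in the hairpin. Of 2545 mature human microRNAs in the RefSeq table, 1 carries this seed, miR-31-5p itself. 3′ ends of the 10 genes were not searched for it.
hsa-miR-31-5p: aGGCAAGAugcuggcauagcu
MIR31 hairpin: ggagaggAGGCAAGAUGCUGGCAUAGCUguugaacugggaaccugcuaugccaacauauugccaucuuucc

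Values are deposited linear intensities, and wherever a pair of intensities is given the control array comes first and the miR-31 array after it. A ratio is the difference miR-31 array minus control array of log2(intensity + 16), a scale on which changes of dim probe sets are understated. The trimmed mean intensity was 500.1 on both arrays, so they had been set to a common scale. To judge how bright a probe set can be without its transcript, 107 probe sets of olfactory receptors, a family mostly silent outside the nose, were read on the same arrays. Their 95th percentile was 57.3 (control) and 52.5 (miR-31), and their highest values were 146 and 129. Values below the 95th percentile are said to lie in the olfactory receptor range. Of 9 glial and glioma markers listed for this purpose, 7, among them GFAP, VIM and SOX2, lay above that range on both arrays, and S100B and AQP4 did not.

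Of the 37 probe sets, 0 reached 2-fold up with miR-31, and 3 reached 2-fold down, 1 of PDGFRB and 2 of FGF5. Over all 41091 named probe sets at any level, 6.03% were at least 2-fold higher and 5.06% at least 2-fold lower. Of the 37, 22 probe sets of 8 genes had a mean level at or above the array's median, an intensity of 62.6. PDGFRB and FGF1 had no such probe set. Of these 22, 0 were at least 2-fold higher and 2 at least 2-fold lower, against 3.58% and 1.67% of the 22483 named probe sets that passed. With the brightest of these probe sets standing for each gene, 0 of 8 genes were at least 2-fold higher and 1, FGF5, at least 2-fold lower, against 3.74% and 1.58% of 11792 genes. At a looser limit of 1.5-fold, 3 of the 22 were higher, against 12% of all, and 5 were lower, against 6.72%. The 3 higher probe sets were of PDGFRA, PDGFC and FGFR1, and the 5 lower ones were of PDGFA, FGFR3, FGF2 and FGF5, the last with 2. Probe sets of 1 gene share its transcripts and are not independent. Of the 2 lower FGF5 probe sets, 1 had a miR-31 value below the filter and passed only through its control value, so that its place in the count follows partly from the filter. The median ratio of the 8 genes was -0.29, beside 0.03 for all genes compared, and 6 of the 8 lay below 0, as did 46.8% of all genes compared. Without probe sets whose names end in _s_at or _x_at, 5 genes were left and their median was 0.17.

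**Figure D1:**
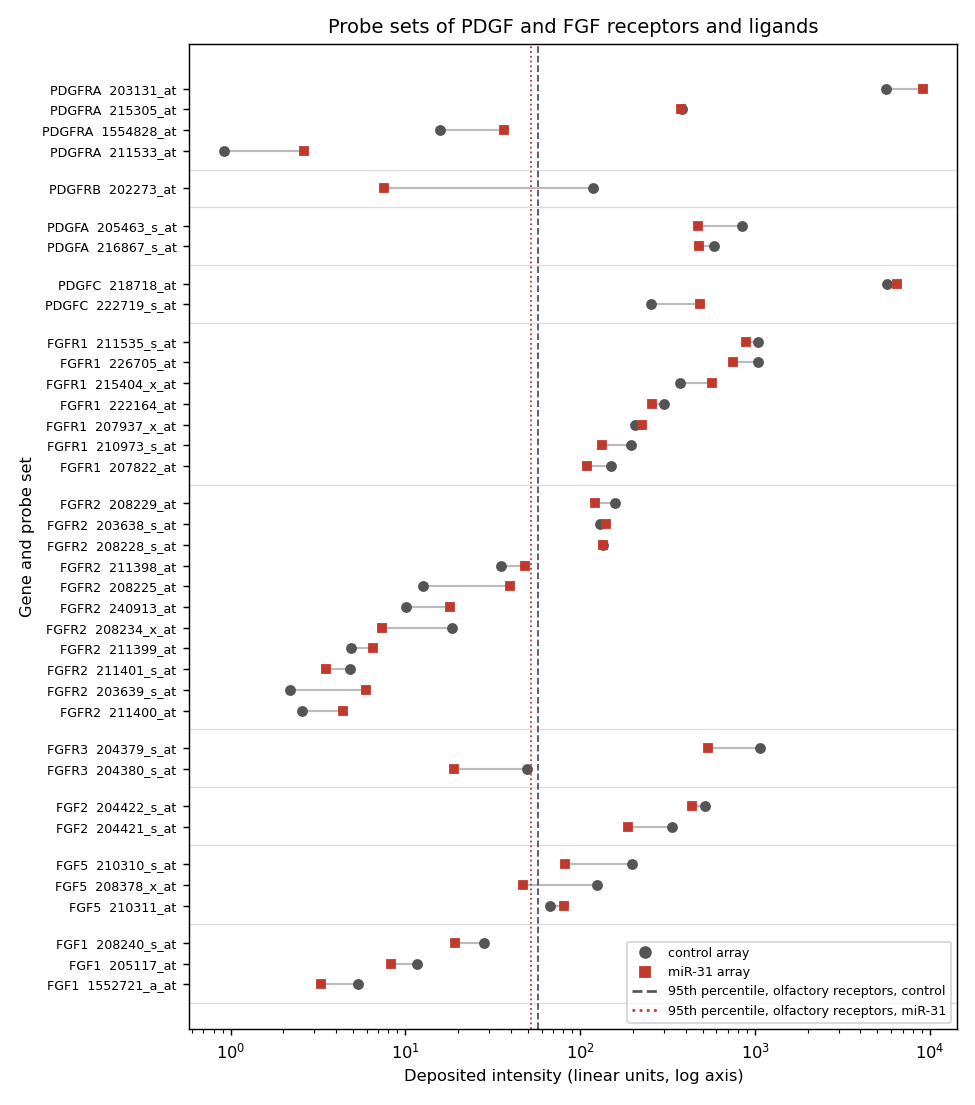
Each row is a probe set, with its deposited intensity (log axis) in the control array (grey circle) and the miR-31 array (red square), 1 array each; vertical lines mark the 95th percentile of olfactory receptor probe sets, 57.3 (control) and 52.5 (miR-31). PDGFRB crosses from 118 to 7.57, while 14 of the 37 probe sets lie left of both lines on both arrays.

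The PDGF receptors lay in opposite directions. PDGFRA, the receptor for PDGF-AA and PDGF-CC, went from 5601 to 9052 on its brightest probe set, 203131_at. The ratio was 0.69, or 1.61-fold higher. A second probe set of PDGFRA, 215305_at, had 383 and 379 (ratio -0.02), so the increase was seen on 1 of the 2 probe sets that passed the level filter. The others, 1554828_at and 211533_at, were in the olfactory receptor range on both arrays. The first of these had 15.7 and 36.5 and the second 0.919 and 2.62. The mean of the 2 brighter probe sets gave 0.34, and centring ratios on the poly-A spike-in controls gave 0.14 for the brightest.

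PDGFRB, the receptor for PDGF-B and PDGF-D, had the lowest ratio of all 37 probe sets and is read by 1 probe set. Its intensity went from 118 to 7.57, a ratio of -2.50. The control value lay above the 95th percentile of olfactory receptor probe sets but below their highest value of 146, and the miR-31 value lay within their range. The size of the ratio depended on the added constant: it was -3.79 with a pseudocount of 1 and -1.34 with 64. Named probe sets with a control intensity from 100 to 140 numbered 1948. Of these, 5.49% were in the olfactory receptor range in the miR-31 array, and 5 probe sets, or 0.257%, had a ratio as low as that of PDGFRB, itself included. The band was placed around the control value of PDGFRB, which was singled out as the lowest of the 37, so this share is a description and not a measure of rarity.

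PDGFRB is a pericyte marker and PDGFRA a marker of oligodendrocyte progenitors and of fibroblasts, so other markers of those cells were read beside them. Among the 6 other pericyte and smooth muscle markers, 4 lay above the olfactory receptor range on both arrays, and the summed intensity of the 6 was 493 and 696. ACTA2, smooth muscle actin, had a ratio of 0.97, and without it the sum of the remaining 5 was 293 and 291. RGS5 and KCNJ8 each had a ratio of 0.16 and CSPG4 one of 0.17, while MYH11 had -0.14 and ABCC9 -0.71. Of these, CSPG4 and ABCC9 were in the olfactory receptor range on both arrays. Fibroblast markers were split: COL1A2, a collagen chain, had 12349 and 21028 (0.77) and DCN had 0.47, while COL1A1 had -0.62, LUM -1.17 and COL3A1 -1.67. Of these 5, DCN, LUM and COL3A1 were not above the olfactory receptor range on both arrays. The 6 progenitor markers other than PDGFRA were in the olfactory receptor range on both arrays. Among them OLIG2, a lineage transcription factor, had 2.68 and 24.5, and SOX10 had 53.8 and 22.7. The part of other cell types in these ratios was not tested. In such bulk RNA, fewer cells with a transcript and less transcript per cell cannot be told apart.

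Neighbours of the PDGF receptors had ratios of both signs. Beside PDGFRA on chromosome 4, GSX2 had 0.08, CHIC2 -0.12 and LNX1 -0.37 on one side, and the receptor kinases KIT and KDR had 100.1 and 14.3 (-1.94) and 539 and 281 (-0.90) on the other. Beside PDGFRB, the receptor kinase CSF1R had 75.9 and 101 (0.35) and HMGXB3 had 608 and 531 (-0.19). TIGD6, which did not pass the level filter, had 45.3 and 53.2 (0.17). CDX1 (-0.37), SLC6A7 (-0.06) and CAMK2A (-0.02, brightest probe set) were in the olfactory receptor range on both arrays. Neighbours were read after the members' values were known.

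The bases before an annotated start are shown for these 2 receptors because they are the related pair with opposite ratios. RefSeq windows (GRCh38.p14) matched 8 of the 10 genes, all but PDGFC and FGFR1, with 20 windows, and 250 bases before each start were searched on both strands. The GC box GGGCGG (or CCGCCC) was found in 13 of the 20 windows, against 42.6% of 35116 windows of all genes. Each of the 8 genes had it in at least 1 window, but the share of all genes that do was not computed. Windows of 1 gene can overlap, as some of FGF1 do, so the 20 are not independent. CCAAT (or ATTGG) was in 8 of the 20, against 32.0% of all, and TATAAA (or TTTATA) in 1, against 10.7%. TGANTCA, a looser form of the AP-1 motif with any base in the middle, was in 2, against 6.57%. A match to it need not be an AP-1 site. PDGFRA has 2 annotated starts in the table. The first, chr4:54229043-54229292, holds neither GC nor CCAAT boxes, and the second, chr4:54233710-54233959 on the plus strand, holds 2 GC boxes and 1 CCAAT box. The PDGFRB window, chr5:150155846-150156095 on the minus strand, holds 1 of each. GC and CCAAT boxes are in capitals, and a match is a description of letters, not of a bound site.
PDGFRA: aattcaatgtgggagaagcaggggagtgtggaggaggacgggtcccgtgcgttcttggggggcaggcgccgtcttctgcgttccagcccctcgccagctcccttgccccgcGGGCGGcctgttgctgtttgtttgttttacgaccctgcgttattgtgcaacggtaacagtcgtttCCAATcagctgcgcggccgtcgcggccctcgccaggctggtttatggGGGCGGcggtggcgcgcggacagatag
PDGFRB: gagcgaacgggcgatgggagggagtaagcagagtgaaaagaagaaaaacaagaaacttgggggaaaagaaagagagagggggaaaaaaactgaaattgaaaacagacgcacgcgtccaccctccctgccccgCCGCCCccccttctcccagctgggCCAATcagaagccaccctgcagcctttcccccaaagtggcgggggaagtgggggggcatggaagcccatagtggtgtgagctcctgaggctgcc

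The PDGF ligands also lay on both sides of 0. PDGFA, which makes the PDGF-AA dimer, had 835 and 469 on its brightest probe set (ratio -0.81, 1.76-fold lower). Its other probe set had 579 and 479 (-0.26). Both were lower, and neither reached 2-fold. Both have names ending in _s_at, so the setting without that kind gave no value for PDGFA. PDGFC, whose product is secreted in a latent form, had 5706 and 6444 on its brightest probe set (0.17) and 252 and 483 on the other (0.90, 1.86-fold higher). Both lay above 0 on the deposited scale. The brightest lay below 0, at -0.01 and -0.38, when ratios were centred on the hybridisation or the poly-A spike-in controls.

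**Figure D2:**
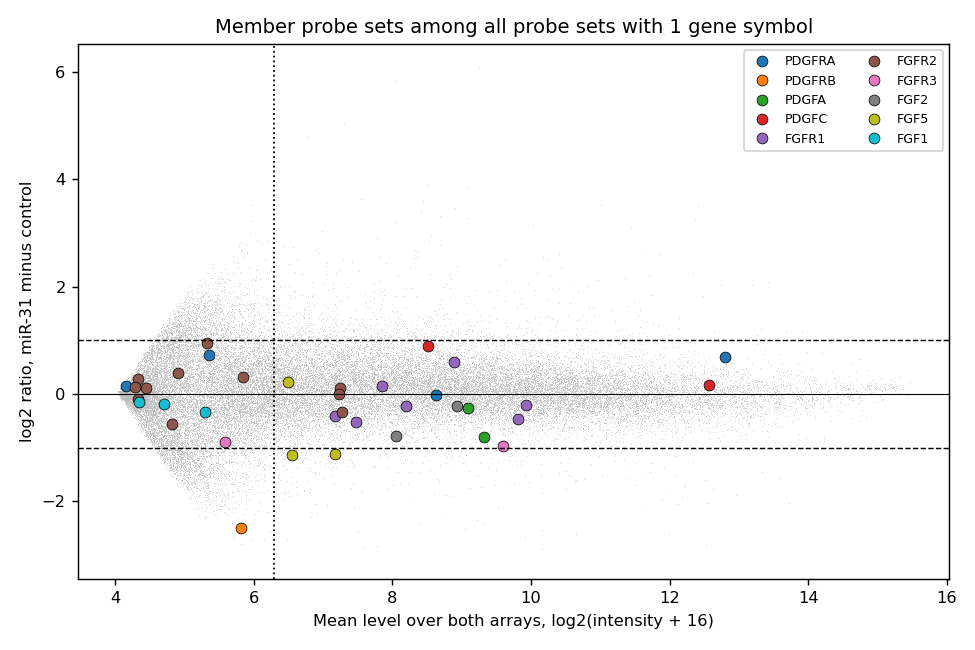
The ratio (miR-31 minus control, log2) of each probe set is plotted against its mean level over both arrays; grey points are all 41091 named probe sets, coloured points the 37 of the named genes, the dotted line the level filter and the dashed lines 2-fold. The grey points spread most in the second-dimmest of 4 level groups, where PDGFRB lies at -2.50, and FGFR3 and PDGFA lie between 0 and the lower dashed line.

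The spread of ratios depended on level. The named probe sets were split by level into 4 groups of equal size. In the brightest group, above an intensity of 560, the 5th and 95th percentiles of the ratios were -0.60 and 0.64. They were -0.69 and 1.002 in the next group and -1.33 and 1.41 in the one after that, down to 19.0. In the dimmest group, they were -1.15 and 1.07. The brightest probe sets of PDGFRA, FGFR3, PDGFA and FGF5, and the only one of PDGFRB, lay outside the percentiles of their group, and those of FGFR1, FGFR2, FGF2 and PDGFC inside. These percentiles describe the probe sets of this pair of arrays and are not replicate error.

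Among the FGF receptors, FGFR3 had the lowest ratio and no probe set of FGFR1 or FGFR2 above the filter reached 2-fold. FGFR3 had 1067 and 538 on its brightest probe set, a ratio of -0.97 or 1.96-fold lower, just short of 2-fold. Its other probe set had 49.6 and 19.0 (-0.91), in the olfactory receptor range on both arrays. Both ratios of FGFR3 lay below 0. The brightest remained so under the 11 alternative settings that kept it, from -1.52 to -0.91. Among these, the changes of level filter and the mean of probe sets could not alter its value. Both probe sets have names ending in _s_at, so the setting without that kind gave no value for FGFR3. The genes on either side of FGFR3, TACC3 and LETM1, had ratios of -0.44 and 0.40. TACC3 encodes a spindle protein and is the fusion partner of FGFR3 in a subset of glioma.

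FGFR1 was read by 7 probe sets, all of which passed the level filter. The brightest, 211535_s_at, had 1037 and 892 (-0.21), and 226705_at had 1044 and 746 (-0.48). In all, 5 of the 7 lay below 0, the lowest at -0.52 with 196 and 132. The 2 above 0 were both of the kind named _x_at, whose probes can bind other transcripts: 215404_x_at had 371 and 567 (0.59) and 207937_x_at had 204 and 227 (0.14). The probe sets of FGFR1 therefore disagreed in sign.

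FGFR2 was read by 11 probe sets, the most of the 10 genes, and 8 of them lay in the olfactory receptor range on both arrays. The other 3 lay between 122 and 158 on the 2 arrays, near the brightest olfactory receptor probe set. They had 158 and 122 (-0.34), 130.2 and 141 (0.10), and 134.7 and 134.5 (0.00). These 3 did not share a direction. The dim probe sets ran from -0.56 to 0.95, the upper end from 12.7 and 39.5.

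Of FGF1, FGF2 and FGF5, FGF5 had the lowest ratios. Of its 3 probe sets, 2 were lower with miR-31, 210310_s_at with 196 and 82.1 (-1.11, 2.16-fold lower) and 208378_x_at with 124 and 47.2 (-1.15). The latter's miR-31 value lay in the olfactory receptor range and its control value below the highest olfactory receptor probe set, so the size of that ratio is not well measured. The remaining one, 210311_at, had 67.0 and 81.2 (0.23) and did not share the decrease. The lower 2 have names ending in _s_at or _x_at, the kinds that can read several transcripts, so without these kinds the ratio of FGF5 was 0.23. The mean of the 3 was -0.68. The FGF5 transcript has a short alternative form, and which forms each probe set reads was not determined here.

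FGF2, basic FGF, had 515 and 437 on its brightest probe set (-0.23) and 334 and 187 on the other (-0.79, 1.73-fold lower). Both were lower. As a scale for such pairs, disagreement between the 2 probe sets of a gene gave an SD of 0.34 per probe set. It was taken from the 3142 genes with exactly 2 probe sets above the filter. This SD comes from 1 pair of arrays, holds no variation between arrays or cultures, and is not an error of the ratios. NUDT6, which is transcribed from the opposite strand and overlaps FGF2, had 400 and 591 (0.55) on its brightest probe set. The other neighbours of FGF2 lay on both sides of 0: BBS12 had 0.58, AFG2A -0.55 and SPRY1 -0.15. IL21 (-0.82) and IL2 (-0.19) were in the olfactory receptor range on both arrays. FGF1, acidic FGF, had 28.1 and 19.1, 11.7 and 8.32, and 5.37 and 3.27 on its 3 probe sets. All 3 lay in the olfactory receptor range on both arrays, so a level of FGF1 was not detectable on them. SPRY4, an inhibitor of FGF receptor signalling and the gene next to FGF1, had 786 and 341 (-1.17). The other neighbours of FGF1 lay above 0: GNPDA1 had 0.07, NDFIP1 0.14, ARHGAP26 0.02 and NR3C1 0.32.

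**Figure D3:**
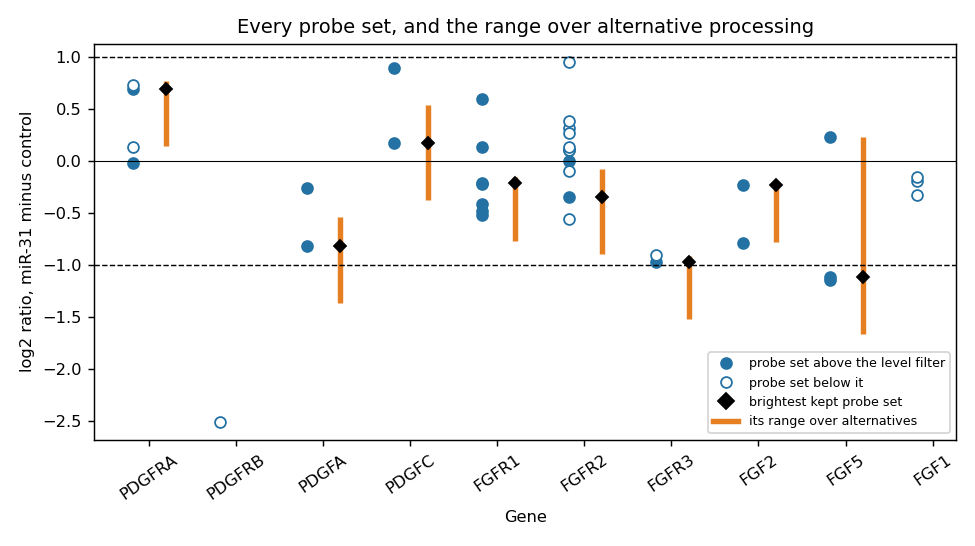
For each gene, circles are the ratios (miR-31 minus control, log2) of its probe sets, filled where the probe set passed the level filter. The diamond is the brightest of those. The orange bar is the range of the gene's value over the settings, some of which use another probe set or a mean, as for FGF5. FGF5 and FGFR1 have filled circles on both sides of 0, both of PDGFA lie below 0 and both of PDGFC above, and PDGFRB and FGF1 have open circles only.

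Disagreement between probe sets of a gene was common on these arrays. Of 7 of the genes with at least 2 probe sets above the filter, 4 (PDGFRA, FGFR1, FGFR2 and FGF5) had ratios on both sides of 0, or 57.1%. The share was 44.0% of the 5923 such genes on the array.

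Other members of the 2 ligand and receptor families were counted from lists, with the brightest probe set above the level filter for each gene. The shares of all genes at least 2-fold higher or lower, 3.74% and 1.58%, are the background for each count. Among the PDGF and VEGF family, 8 of 12 measured genes passed the filter, 7 lay above 0 and 1 below, 3 reached 2-fold up and 0 down, and the median was 0.72. When centred on the hybridisation or the poly-A controls 0 reached 2-fold up and 1 reached 2-fold down, and the poly-A centring gave a median of 0.17. After quantile normalization or loess 2 were up and 1 down, and with a pseudocount of 64, or without _s_at and _x_at probe sets, 1 was up. Without a level filter, 4 of 12 were up and 2 down. With the filter applied to the higher of the 2 array values, 3 of 10 were up and 2 down. Both gave a median of 0.46. The 2 down were PDGFB and KIT, which the main filter removed, so the absence of lower genes follows partly from that filter. The 3 that were up with the main filter were PDGFRL, a receptor-like protein without a kinase, with 163 and 381 (1.15), and 2 angiogenic ligands. These were VEGFB with 199 and 445 (1.10) and VEGFA with 1085 and 2334 (1.09). KDR, a VEGF receptor, had the lowest ratio of the 8.

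The remaining PDGF ligands differed from each other. PDGFD, a ligand of PDGFRB, had 1336 and 1618 (0.27, and 0.22 on its other probe set). PDGFB, the other ligand of PDGFRB, did not pass the filter, and its brightest probe set had 99.9 and 17.3 (-1.80), while the other 3 of its 4 probe sets lay in the olfactory receptor range. PDGFB, PDGFRB and KIT each had a dim control value and a miR-31 value in the olfactory receptor range, a grouping made after their values were seen. Of all named probe sets with a control intensity from 100 to 140, 5.49% had a miR-31 value in that range. This band was placed around PDGFRB and leaves out PDGFB, at 99.9, so it is no background for the 3 together.

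Most other FGF ligands were too dim to compare. Of 19 measured, 4 passed the filter, all 4 above 0 with none at 2-fold and a median of 0.49, which lay below 0 (-0.06) when centred on the poly-A controls. FGF12, an intracellular FGF-like protein, had 451 and 646 (0.50), though its 3 probe sets ran down to -0.10, and FGF13, of the same intracellular group, had 1837 and 2235 (0.28). FGF11, also intracellular, had 0.49, and so did FGF6, from 50.9 and 77.8. FGF6 passed only through its miR-31 value, since 50.9 lies in the olfactory receptor range, so its place among the 4 follows partly from the filter. FGF7, a paracrine ligand of FGFR2, had 16.3 and 1.14, in the olfactory receptor range.

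Of the further FGF receptors and binding proteins, 4 of 10 passed the filter, all 4 lay below 0 and 2 past 2-fold, and the median was -0.83. With a pseudocount of 64, the mean of probe sets or the stricter filter, 1 was past 2-fold. FLRT3, a membrane protein that binds FGF receptors, had 191 and 65.6 (-1.34). FLRT2, of the same family, had 674 and 288 (-1.18), but its 3 probe sets ran up to 0.28. FGFBP3, a carrier of FGFs, had -0.48, and FGFRL1, a receptor without a kinase, had 358 and 350 (-0.03). FGFR4 was in the olfactory receptor range on all 4 of its probe sets, with 36.1 and 30.4 on the brightest.

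Heparan sulfate genes showed no common direction. Of 18 measured, 16 passed, 7 above and 9 below 0, 1 past 2-fold in each direction, and the median was -0.02, which turned to 0.03 with the mean of probe sets, where 0 were past 2-fold. HS6ST1, which adds the 6-O sulfate used in FGF binding, had 4511 and 1848 (-1.28, and -0.33 on another probe set). HPSE, heparanase, had 218 and 538 (1.24, and 0.44 on another). GPC1, a cell-surface proteoglycan, had ratios of -0.83 and 0.09 on its 2 probe sets, and GPC2 had 0.63. Among proteases that process PDGF ligands, 5 of 7 passed, 4 lay below 0, 1 of them past 2-fold, and the median was -0.36. That one was PLAT, tissue plasminogen activator, which releases active PDGF-C, with 7556 and 2066 (-1.86), on a single probe set of the _s_at kind. FURIN, which cleaves the PDGFA precursor, had 300.2 and 231 (-0.36), PCSK5 had -0.46 and PCSK7 -0.11.

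Adaptors bound by the receptors lay near 0. Of 20 listed, 15 were measured and passed, 9 above and 6 below 0, 1 past 2-fold up and 0 down, and the median was 0.13. That median lay below 0 when centred on either set of spike-in controls and with a stricter level filter, and 0 reached 2-fold up under poly-A centring, the stricter filter or the mean of probe sets. SRC, a cytoplasmic kinase, had 72.0 and 229 (1.48, and 0.49 on another probe set, with its other 5 in the olfactory receptor range). FRS3, a docking protein of FGF receptors, had 61.9 and 106 (0.65) and passed only through its miR-31 value, PTPN11, the phosphatase SHP2, had -0.45, and STAT3 had 0.41. FRS2, the main FGF receptor docking protein, was not analysed here.

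Negative regulators and early output genes were mostly lower. The share of all genes below 0 was 46.8%. Of 15 regulators that passed, 11 lay below 0, 3 reached 2-fold down and 0 up, and the median was -0.37. They were DUSP6, an ERK phosphatase, with 1010.3 and 340 (-1.53), SPRY4, and FLRT3. FLRT3 was already counted above among the FGF receptors and binding proteins. It was placed in this list without evidence here that it inhibits the receptors, so its part in the count is not that of a known inhibitor. SPRY2, a Sprouty inhibitor, had -0.63. Of 16 output genes that passed, 14 lay below 0, 7 reached 2-fold down and 0 up, and the median was -0.92. IER3, an early response gene, had the lowest ratio, -2.63, followed by the cyclin CCND1 (-1.94) and the AP-1 subunit FOSL1 (-1.69). These 2 lists share DUSP6, SPRY2, SPRY4 and SPRED1, and several of their genes were already known to be lower in these arrays when the lists were written, so the counts are no independent evidence of direction. Poly-A centring moved the counts at least 2-fold down to 7 of 15 and 12 of 16. No list carries a test.

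**Figure D4:**
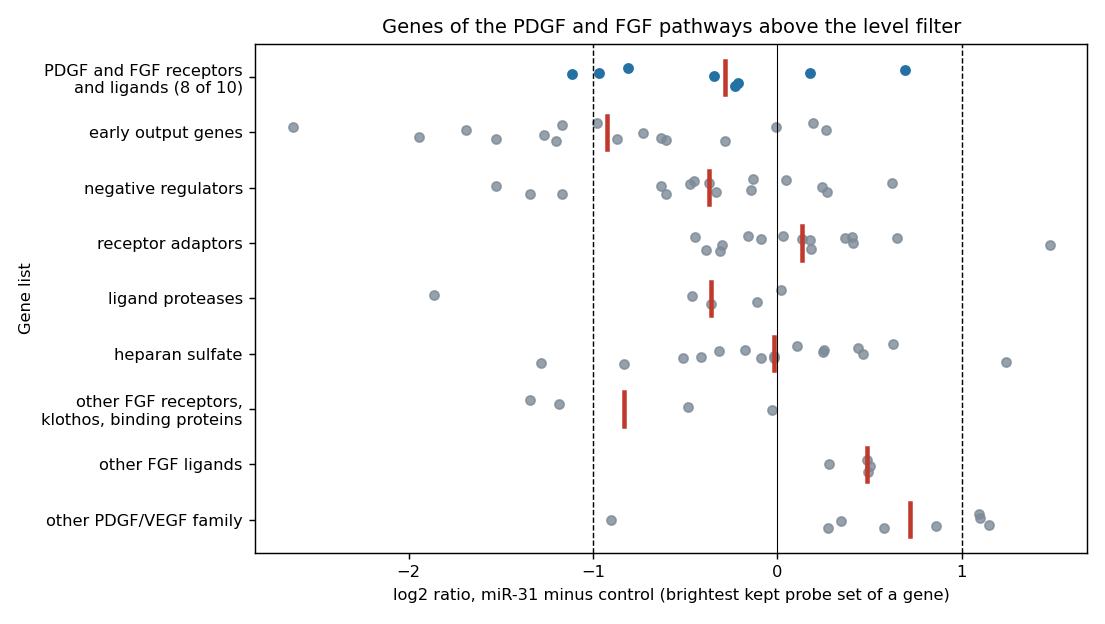
Each point is the ratio (miR-31 minus control, log2) of a gene's brightest probe set above the level filter, by gene list, and each red bar the list's median; dashed lines mark 2-fold. The early output genes have a median of -0.92 and the other PDGF and VEGF family genes one of 0.72, with the 8 PDGF and FGF receptors and ligands at -0.29.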

How the data were processed

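Each array came as deposited linear intensity values, already on a common scale when the authors submitted them. Which software computed them is not given in the sources used, and no detection calls were used. Per the labels' protocols, RNA was extracted with trizol and labelled with a 3′ in vitro transcription kit. Probe sets were named through the supplied platform annotation: 41097 carried 1 symbol, 1801 several and 11777 none. The 62 control probe sets were left out. Values were taken as log2(intensity + 16). The level filter was the median over probe sets of the mean log2 value of both arrays. The brightest probe set that passed stood for a gene. All 10 genes were named with every probe set; of each list, up to 4 genes with the largest absolute ratio were named, with PDGFB, PDGFD, FGFR4, FGFRL1, FRS2, PLAT and FURIN in any case. KIT, FGF7, other neighbours and single markers were named after their values were seen. Members and lists were chosen with earlier results of these data known. No test was run, because each group has 1 array; this number limits the precision. The calculation was tested on simulated data. Python 3.11.15, numpy 2.4.6, pandas 2.3.3, statsmodels 0.14.6 and matplotlib 3.10.9 were used.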

Additional observations from a re-analysis of the deposited data

How the results depend on the processing

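No paired analysis was possible because the control and miR-31 groups hold 1 array each, which also means that leaving an array out was not an option. Centring shifted every ratio by -0.02 (median), -0.19 (hybridisation controls) or -0.55 (poly-A controls). Of the 8 genes above the level filter, the count lower by 2-fold or more, 1 (FGF5), became 2 after quantile normalization or loess (with FGFR3), 2 of 10 genes without a level filter or 2 of 9 with a filter on the higher array, chosen after seeing the data (with PDGFRB), and 3 when centred on hybridisation or poly-A controls (with FGFR3 and PDGFA). It was 0 with a pseudocount of 64, a stricter level filter, the mean of probe sets, or without _s_at and _x_at probe sets. The number of probe sets at least 2-fold lower, 2, became 4 and 7 with the same 2 centrings on controls, and 0 with a pseudocount of 64, the stricter filter, or without _s_at and _x_at probe sets. At 1.5-fold there were 3 probe sets higher and 5 lower, and 1 gene higher and 3 lower. No probe set or gene was 2-fold higher under any setting run at that threshold. The ratio of FGF5 reversed from -1.11 to 0.23 without _s_at and _x_at probe sets. Stricter or looser filters change by construction how many can pass, and the cause of the other shifts was not tested.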
